A study of Rattus norvegicus with 12 samples.

Results

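The genes described here are 8 carriers that move amino acids and small peptides across the absorptive cell of the small intestine: Slc1a1, Slc15a1, Slc6a19, Slc3a1 and Slc7a9 of the apical membrane, and Slc7a7, Slc3a2 and Slc7a8 of the basolateral membrane. They were chosen by function, and a probe set was taken where the platform annotation gave it one of these symbols and no other. Of the 8 genes, 7 had such a probe set (of 13810 symbols that alone name a probe set on either array type), which made 8 probe sets (2 for Slc1a1 and 1 for each of the others) among 15866 on the 230A array, and none of the 15276 on the 230B array. Slc6a19, the main apical carrier of neutral amino acids, had no probe set by this rule and has no value below. RNA was taken from mucosa scraped off the jejunum of rats, the stretch of small intestine between duodenum and ileum, in a high Fe and a low Fe group, all labelled as week 12, with iron deficiency and anemia among the keywords. There were 3 samples per group, each hybridised to the Affymetrix array types 230A and 230B, for 12 arrays in all. Strain, sex, diet composition and the number of animals per sample are not given in the sources used here, and whether the samples are separate animals is not stated, so the spread behind each p-value is that of these samples and may be technical.

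The end products of protein digestion enter the enterocyte by 2 kinds of apical carrier. Slc15a1 (PepT1) takes up dipeptides and tripeptides together with protons, and the amino acid carriers take up free amino acids, some driven by sodium and some by exchange. Several carriers work only as a pair of a heavy chain, which brings the complex to the membrane, and a light chain, which carries the substrate: Slc3a1 (rBAT) with Slc7a9 (b0,+AT) in the brush border, and Slc3a2 (4F2hc, CD98) with Slc7a7 (y+LAT1) or Slc7a8 (LAT2) on the basolateral side. Inherited loss of Slc3a1 or Slc7a9 causes cystinuria, and loss of Slc7a7 causes lysinuric protein intolerance.

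On every array of a type the signals had been brought to the same trimmed mean (500.1 on 230A), and median signals ran from 154.5 to 176.2 on 230A. With 3 arrays a group, precision is limited throughout. The enterocyte markers were bright in both groups: the summed signal of 10 of them on 230A ran from 95577 to 150435 in high Fe and from 101721 to 123624 in low Fe. The iron genes differed between the groups, but they were chosen after their values were seen and so are no check of the labels. Slc11a2, the apical iron importer, differed by 2.19 ± 0.15 on the log2 scale (SE, adjusted p = 0.000892, limma). Cybrd1, the brush border ferric reductase, differed by 3.91 ± 0.28 (adjusted p = 0.000892). Tfrc, the transferrin receptor, gave 2.74 ± 0.23 (adjusted p = 0.00216) and Hmox1 1.31 ± 0.16 (adjusted p = 0.0251). All 4 were higher in low Fe. A less bright probe set did not pass for Slc11a2 (1.73 ± 0.26, adjusted p = 0.0806) or Tfrc (1.67 ± 0.41, adjusted p = 0.488). Of the other marker lists on 230A, all 4 tested Paneth and crypt markers had log2 differences above 0 (median 0.64), as had 2 of 6 leukocyte, 0 of 4 goblet, 5 of 6 enteroendocrine and 2 of 4 proximal small intestine markers. On 230B all 3 tested goblet markers were above 0 (median 0.18), as were 1 of 2 leukocyte and 0 of 1 proximal markers. Over all named genes tested, 3497 of 7051 on 230A and 2060 of 4059 on 230B were above 0. Lyz2 counts in both the leukocyte and the Paneth list. On 230A, proximal Onecut2 gave -0.98 ± 0.25 (adjusted p = 0.509, limma) and leukocyte Cd8a -0.66 ± 0.19 (adjusted p = 0.543). Low Fe was below high Fe on all arrays of both, where 11.8% of all tested probe sets did not overlap. On 230B their groups overlapped (-0.53 ± 0.45 and -0.81 ± 0.43). None of these markers passed on either type, and their part in the carrier values was not tested. In bulk RNA, fewer cells of a type and less RNA per cell cannot be told apart.

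None of the 8 carrier probe sets passed the test of low Fe against high Fe in limma (adjusted p 0.05 over all 9519 probe sets tested on 230A), and 1 had an unadjusted p under 0.05, the brighter one of Slc1a1. Over the whole type, 0.0945% of tested probe sets passed and 6.68% had an unadjusted p under 0.05. All 8 lay above the filter on dim probe sets, which left out the lowest 40%. Their log2 differences, low Fe minus high Fe, ran from -0.21 to 0.75 with a median of 0.02, against a median of -0.01 over all probe sets tested, and 4 were above 0 and 4 below, where 46.9% of all tested probe sets were above 0. Differences are on the scale of log2(signal + 16), which understates changes of dim probe sets. The groups did not overlap for 1 of the 8, with low Fe above, against 11.8% of all tested probe sets in either direction and 5.61% with low Fe above.

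**Figure D1:**
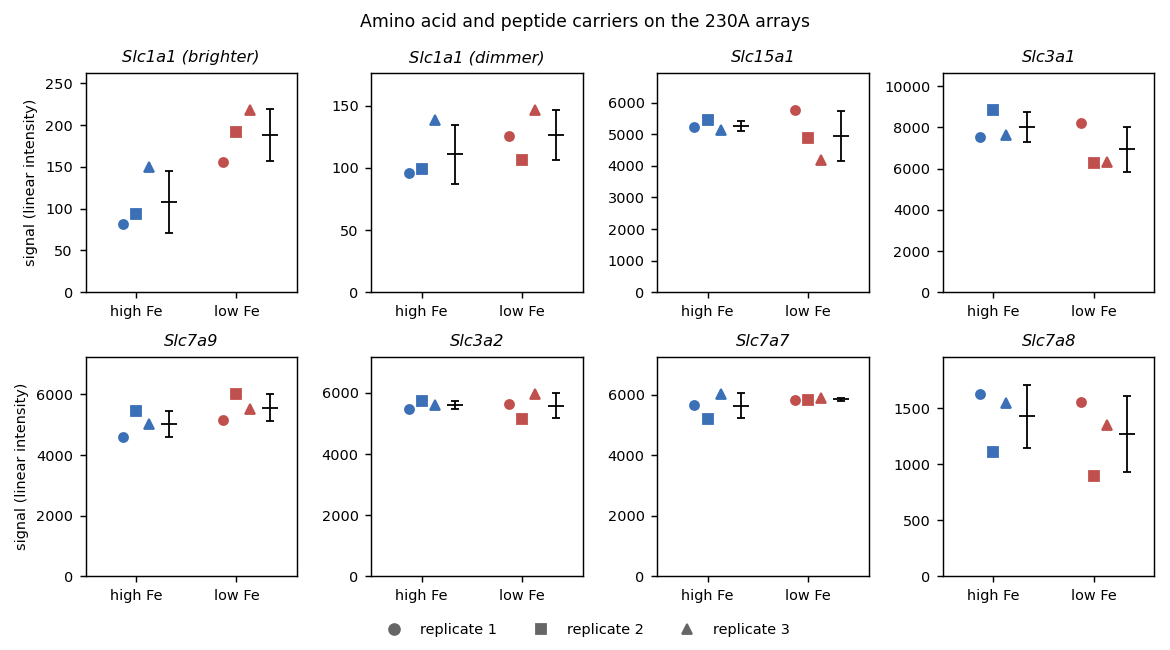
Signal (linear intensity) of each carrier probe set on the 6 arrays of type 230A, high Fe in blue and low Fe in red. Symbols mark the replicate number, and bars give the mean and SD of 3 arrays. The groups overlap in every panel other than the brighter Slc1a1 probe set, where the lowest low Fe array is at 156.3 and the highest high Fe array at 150.3.

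Slc1a1 (EAAT3, EAAC1) is a sodium-driven carrier of glutamate, aspartate and cysteine in the apical membrane. Its brighter probe set read 81.1, 93.3 and 150.3 in high Fe replicates 1, 2 and 3, and 156.3, 191.4 and 218.5 in low Fe replicates 1, 2 and 3. All 3 low Fe arrays were above all 3 high Fe arrays, and high Fe replicate 3 came within a few units of low Fe replicate 1. The means were 108 ± 36.9 in high Fe and 189 ± 31.2 in low Fe (SD, n = 3 each). The log2 difference was 0.75 ± 0.24 (SE, 95% interval 0.21 to 1.29), or 1.68-fold, and it did not pass (adjusted p = 0.650). It ranked 174 of the 9519 probe sets by p.

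The other Slc1a1 probe set, annotated to the same accession, read 95.9, 98.8 and 138.1 in high Fe and 125.5, 106.3 and 146.7 in low Fe. Here the groups overlapped, with 1 low Fe array above the highest high Fe array. Its log2 difference was 0.17 ± 0.21 (adjusted p = 0.884), with a 95% interval of -0.30 to 0.64. The mean of both probe sets gave 0.46 ± 0.22 (adjusted p = 0.749). Both were dim for a carrier of this membrane: they were brighter than 47.4% and 42.2% of the 230A probe sets, and the boundary of the filter, a signal of 106, was above 2 of the 3 high Fe arrays of either probe set. On both probe sets, replicate 3 was the brightest array of its group.

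The other named genes were searched for the pattern of the brighter Slc1a1 probe set. Some genes always lie nearest in such a search, so their likeness to Slc1a1 follows from the selection and is no separate result. Among all named genes on 230A, those whose centred log2 values over the 6 arrays lay nearest to it were Des (desmin, a muscle intermediate filament), Pdlim3 (a muscle LIM protein) and Bin2, with root mean square differences of 0.12, 0.14 and 0.15. Des read 74.2, 85.7 and 129.9 in high Fe and 140.4, 152.4 and 158.6 in low Fe, a log2 difference of 0.59 ± 0.22 (adjusted p = 0.692). Of 8 listed smooth muscle markers, 5 were tested on 230A (Smtn, Mylk, Des, Acta2 and Myh11). Their summed signal was 3715, 3329 and 4021 in high Fe and 4343, 5636 and 5279 in low Fe, so that the groups did not overlap. Most of this sum was Mylk, at 2899, 2436 and 2926 in high Fe and 3391, 4013 and 3730 in low Fe. All 5 had log2 differences above 0, 3 of them had groups that did not overlap, none passed, and none was at 0 on any array. Of these 3, Smtn and Des had high Fe means of 79.4 and 96.6, under the filter boundary of 106. Their low Fe means of 186 and 150 brought them past the filter, which favours a difference above 0. The counts are therefore no separate support. Of all tested probe sets on 230A, 46.9% were above 0 and 5.61% had all low Fe arrays above all high Fe arrays. The 2 measured on 230B as well, Des and Mylk, overlapped there, with log2 differences of 0.41 ± 0.53 and 0.09 ± 0.42. Muscle markers were not alone in this. Of the 4 tested Paneth and crypt markers on 230A, 2 also had all low Fe arrays above all high Fe arrays. These were Pcna (0.99 ± 0.17, adjusted p = 0.137, limma) and Mki67 (0.76 ± 0.26, adjusted p = 0.68). Of the 10 tested enterocyte markers on 230A, 2 did so as well. They were Cdx2 (0.22 ± 0.12, adjusted p = 0.778) and Cdh1 (0.18 ± 0.12, adjusted p = 0.798). In that list 4 markers were above 0 and 6 below. The part of muscle, crypt or enterocyte RNA in the Slc1a1 values was not tested.

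**Figure D2:**
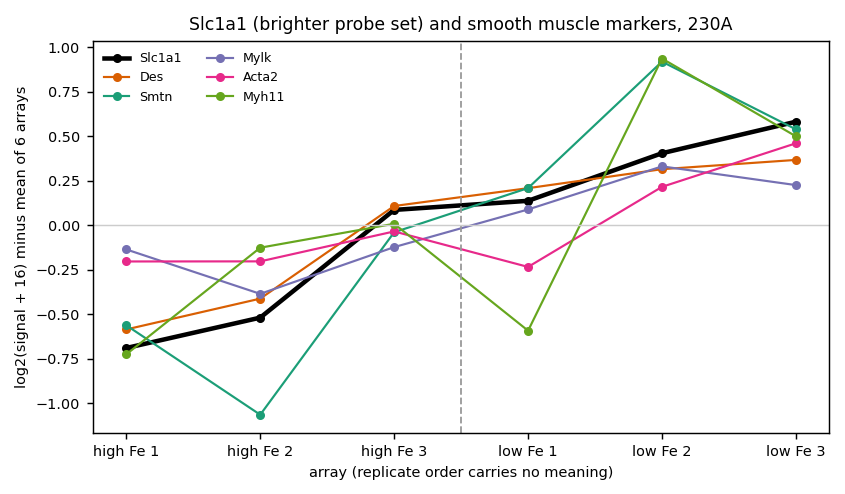
log2(signal + 16) of the brighter Slc1a1 probe set and of 5 smooth muscle markers on each 230A array, each minus its own mean over the 6 arrays; lines join values of one gene and the order of replicates has no meaning. Slc1a1 and Des run close together, and Des was picked as the gene nearest to Slc1a1. In low Fe replicate 1, Myh11 (181.8) lies among its high Fe values and Acta2 (490.9) below them.

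Signs of RNA quality differed between the arrays as well. The 5'/3' signal ratio of the GAPDH control probe sets formed a lower set on 230A (0.794 to 0.811), made up of low Fe replicates 2 and 3 with high Fe replicate 1, and a higher set of the other 3 arrays (0.876 to 0.922). The 230B arrays did not repeat this split for low Fe replicate 3. It read 0.873 there, beside 0.877 in low Fe replicate 1, with low Fe replicate 2 at 0.821 and high Fe replicate 1 at 0.831. The sets used here are those of 230A. The log2 difference of the brighter probe set was 1.18 within the lower set, where high Fe was replicate 1 alone, the lowest of the 6 arrays at 81.1. It was 0.35 within the higher set, where low Fe was replicate 1 alone; neither value was tested. With the sets as a block it was 0.77 (adjusted p = 0.691). The same ratio of beta-actin set another array apart: it was 0.0539 in low Fe replicate 3, the array with the highest Slc1a1 signal, against 0.591 to 0.836 on the other 230A arrays. Without low Fe replicate 3 the Slc1a1 difference was 0.65 (adjusted p = 0.998). The part of RNA quality in these values was otherwise not tested.

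Slc15a1, the peptide carrier, was bright, with signals of 5232, 5442 and 5129 in high Fe and 5775, 4882 and 4174 in low Fe. The high Fe arrays lay within a narrow band, and the low Fe arrays lay on both sides of it, 1 above and 2 below. The coefficient of variation was 3.03% in high Fe and 16.2% in low Fe. Low Fe minus high Fe was -0.10 ± 0.14 on the log2 scale (95% interval -0.41 to 0.21, adjusted p = 0.892). Without low Fe replicate 3, the array with the low beta-actin ratio, it was 0.01. Within the lower GAPDH ratio set it was -0.21 and within the higher set 0.13.

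Slc3a1, the heavy chain of the brush border carrier of cystine and basic amino acids, was the brightest of the 8 probe sets and brighter than 99.0% of the probe sets on the array. Its signals were 7556, 8859 and 7611 in high Fe and 8202, 6276 and 6339 in low Fe. Low Fe replicates 2 and 3 were below all high Fe arrays, and low Fe replicate 1 lay among them. The log2 difference was -0.21 ± 0.14 (95% interval -0.53 to 0.10, adjusted p = 0.798). The genes nearest to it by pattern were Fbxo38, Prpf38a and Hpgd, the enzyme that inactivates prostaglandins, with root mean square differences of 0.04, 0.05 and 0.05. Within the lower GAPDH ratio set the log2 difference was -0.26 and within the higher set -0.0017, so the 2 low Fe arrays with low Slc3a1 were also those with a low ratio.

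Slc7a9, its light chain, read 4610, 5452 and 5015 in high Fe and 5147, 6021 and 5514 in low Fe. Low Fe replicates 2 and 3 were above all high Fe arrays and low Fe replicate 1 was not. The log2 difference was 0.15 ± 0.12 (95% interval -0.12 to 0.42, adjusted p = 0.838), on the other side of 0 from its heavy chain. It was 0.32 within the lower GAPDH ratio set and -0.02 within the higher set.

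The balance of partners was followed as the ratio of their signals within an array, a measure that does not move when all signals of an array are multiplied by 1 factor, chosen after the values were seen. Its level depends on the probes, so only its differences between arrays can be read, and these do not say which partner differed. The ratios were not tested. The Slc3a1 to Slc7a9 ratio was 1.64, 1.63 and 1.52 in high Fe and 1.59, 1.04 and 1.15 in low Fe. In low Fe replicates 2 and 3 it was below every high Fe array, and in low Fe replicate 1 it was among them, so the groups overlapped. Low Fe replicates 2 and 3 are in the lower GAPDH ratio set, as is high Fe replicate 1, at 1.64. The mean was 1.59 ± 0.07 in high Fe and 1.26 ± 0.29 in low Fe (SD, n = 3 each), a difference of -0.36 on the log2 scale.

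Slc3a2, the heavy chain of the basolateral exchangers, also serves light chains outside the absorptive cell and is made by most dividing cells. Its signals were 5485, 5749 and 5604 in high Fe and 5622, 5147 and 5973 in low Fe, with the high Fe arrays inside the low Fe range. Its log2 difference was -0.01 ± 0.11 (95% interval -0.26 to 0.24, adjusted p = 0.988). Without high Fe replicate 2 it was 0.0068 and without low Fe replicate 2 it was 0.05.

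Slc7a7, the light chain that exports basic amino acids, read 5658, 5208 and 6033 in high Fe and 5841, 5819 and 5906 in low Fe. The low Fe arrays lay close together inside the high Fe range, with a coefficient of variation of 0.77% against 7.33%. A log2 difference of 0.06 ± 0.11 (95% interval -0.19 to 0.30, adjusted p = 0.924) resulted. The Slc3a2 to Slc7a7 ratio was 1.00 ± 0.09 in high Fe and 0.95 ± 0.06 in low Fe, and the groups overlapped.

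Slc7a8, the light chain for neutral amino acids, was less bright and varied most among the basolateral carriers. Its signals were 1629, 1109 and 1545 in high Fe and 1558, 897.5 and 1350 in low Fe. Replicate 2 was the lowest array of each group. The log2 difference was -0.19 ± 0.22 (95% interval -0.70 to 0.32, adjusted p = 0.884), and 0.04 without low Fe replicate 2. It was -0.56 within the lower GAPDH ratio set and 0.25 within the higher set, which hold low Fe replicate 2 and high Fe replicate 2 respectively. The Slc3a2 to Slc7a8 ratio was 4.06 ± 0.98 in high Fe and 4.59 ± 1.07 in low Fe.

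**Figure D3:**
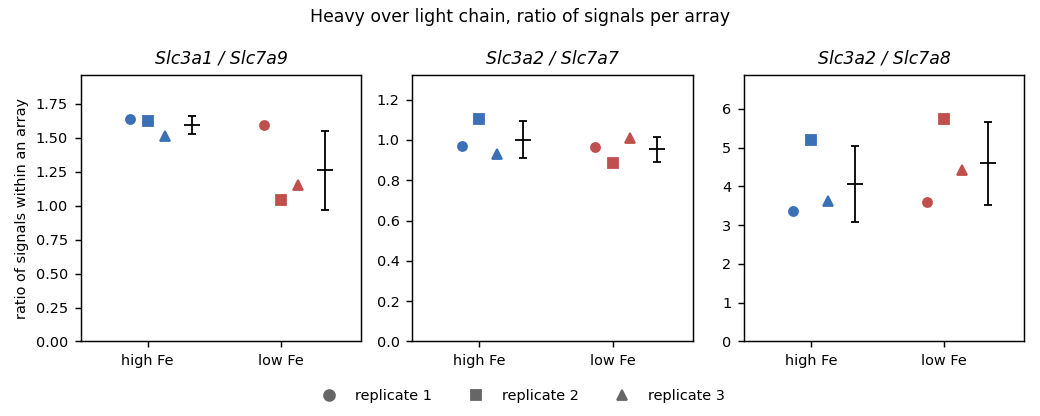
Ratio of heavy chain to light chain signal within each 230A array for 3 carrier pairs, high Fe in blue and low Fe in red, with mean and SD of 3 arrays. The Slc3a1 to Slc7a9 ratio is 1.04 and 1.15 in low Fe replicates 2 and 3 and from 1.52 to 1.64 in the other 4 arrays, and the other 2 ratios overlap throughout.

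The 6 probe sets other than those of Slc1a1 gave folds of low Fe over high Fe from 0.862 to 1.11, and their 95% intervals together reached from 0.617-fold to 1.33-fold. The widest interval was that of Slc7a8 and the narrowest that of Slc7a7. Of the 4 carriers with a difference below 0, Slc15a1, Slc3a1, Slc3a2 and Slc7a8 gave 0.27, 0.16, 0.36 and 0.18 after scaling to the hybridization controls, a scaling that moved the median of all tested probe sets from -0.01 to 0.34. That shift is common to all probe sets, and relative to it Slc15a1, Slc3a1 and Slc7a8 stayed below the median and Slc3a2 lay just above it. With quantile normalization all 4 were below 0, from -0.21 to -0.02. With a common median Slc3a2 alone was above 0 (0.0580), where the median of all tested probe sets was 0.0505.

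**Figure D4:**
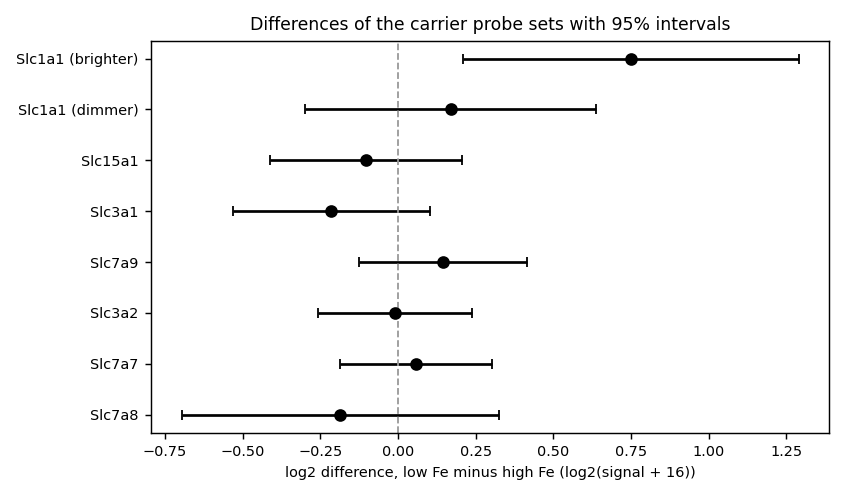
log2 difference (low Fe minus high Fe, on log2(signal + 16)) of each carrier probe set with its 95% interval from limma, 3 arrays a group. The interval of the brighter Slc1a1 probe set runs from 0.21 to 1.29, and those of the other 7 include 0; none passed after adjustment over all probe sets.

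The other carriers of amino acids and peptides were followed in a list of 37 genes, of which 21 were tested, 14 on 230A and 7 on 230B. None passed or had an unadjusted p under 0.05 (limma), where 0.0945% of probe sets passed on 230A and 0% on 230B, with 6.68% and 10.2% at an unadjusted p under 0.05. Of the 21, 8 had log2 differences above 0 and 13 below, from -0.54 to 0.32, with medians of -0.06 on 230A and -0.05 on 230B. Over all named genes the medians were -0.0018 on 230A and 0.0089 on 230B. Slc43a2, a carrier of neutral amino acids, was the brightest of them, at 11081 ± 2405 in high Fe and 10946 ± 1629 in low Fe on 230B.

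Among those with the smallest p on 230A, Slc1a3, a glutamate carrier related to Slc1a1, gave -0.43 ± 0.22 (adjusted p = 0.761). Slc38a2, a neutral amino acid carrier, gave -0.28 ± 0.17 (adjusted p = 0.789). Slc6a6, the taurine carrier, gave 0.31 ± 0.20 (adjusted p = 0.791), and -1.01 ± 0.47 for a less bright probe set. On 230B, the lysosomal carriers Slc38a7 and Slc38a9 gave -0.54 ± 0.28 and 0.32 ± 0.24. Slc36a2, a proton-driven carrier of small amino acids, gave -0.27 ± 0.19 (adjusted p = 0.615), with all low Fe arrays (333 to 411) below all high Fe arrays (431 to 501). On 230B, 10.3% of tested probe sets had all low Fe arrays below all high Fe arrays.

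Of the carrier partners and the genes of the ion gradient, 6 were tested and none passed. Sgk1, a kinase that raises the activity of several sodium-driven carriers, had signals of 4113, 3870 and 1759 in high Fe and 1312, 815.8 and 1404 in low Fe. All low Fe arrays were below all high Fe arrays. The log2 difference was -1.39 ± 0.33 (adjusted p = 0.462). Sgk1 was the only one of the 6 with an unadjusted p under 0.05 (limma) or without overlap. Of all tested probe sets on 230A, 6.68% had such a p and 11.8% did not overlap. Slc9a3, the sodium-proton exchanger that maintains the proton gradient for Slc15a1, gave -0.32 ± 0.16 (adjusted p = 0.761). Arl6ip5, a protein that binds and restrains Slc1a1, gave 0.06 ± 0.11 (adjusted p = 0.921).

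Peptidases of the brush border and cytosol, which make the substrates of these carriers, numbered 16 tested genes with none past the threshold, 4 above 0 and 12 below, and a median of -0.05. Npepps, a cytosolic aminopeptidase, gave 0.33 ± 0.13 without overlap between the groups (adjusted p = 0.720), and was the only one with an unadjusted p under 0.05 or without overlap, a share of the list near the 6.68% and under the 11.8% of all tested probe sets. Lap3, a leucine aminopeptidase, gave -0.42 ± 0.19 (adjusted p = 0.750). Cndp2, a cytosolic dipeptidase, gave 0.31 ± 0.16 (adjusted p = 0.768).

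Of 11 tested genes of enterocyte amino acid metabolism, none passed and 3 had an unadjusted p under 0.05, each without overlap, where 6.68% and 11.8% of all tested probe sets on 230A did so. Arg2, the mitochondrial arginase, went from 1950 ± 175 to 2495 ± 52.6 (0.36 ± 0.12 on the log2 scale, adjusted p = 0.656). Prodh, the first enzyme of proline breakdown, gave 0.39 ± 0.16 (adjusted p = 0.720). Got2, the mitochondrial aspartate aminotransferase, went from 3634 ± 154 to 3030 ± 62.7 (-0.26 ± 0.11, adjusted p = 0.730).

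Genes that respond to a shortage of amino acids through the factor ATF4 also had no member past the threshold among 16 tested, 10 above 0 and 6 below, and 1 with an unadjusted p under 0.05, a share of the list near the 6.68% of all tested probe sets on 230A. Of the 15 tested on 230A, 2 had all low Fe arrays above all high Fe arrays (Shmt2 and Atf4) and 1 had them below (Eif4ebp1). Over all tested probe sets on 230A, 11.8% did not overlap. Atf4 itself went from 2714 ± 94.4 to 2932 ± 125 (0.11 ± 0.11 on the log2 scale, adjusted p = 0.86, limma). Shmt2, a mitochondrial enzyme of serine use, gave 0.45 ± 0.16 (adjusted p = 0.688). Eif4ebp1, a repressor of translation, gave -0.30 ± 0.16 (adjusted p = 0.766), and Phgdh, the first enzyme of serine synthesis, gave -0.42 ± 0.22 (adjusted p = 0.768). Sesn2, a leucine sensor and the only list member tested on 230B, gave -0.17 ± 0.24 (adjusted p = 0.799).

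**Figure D5:**
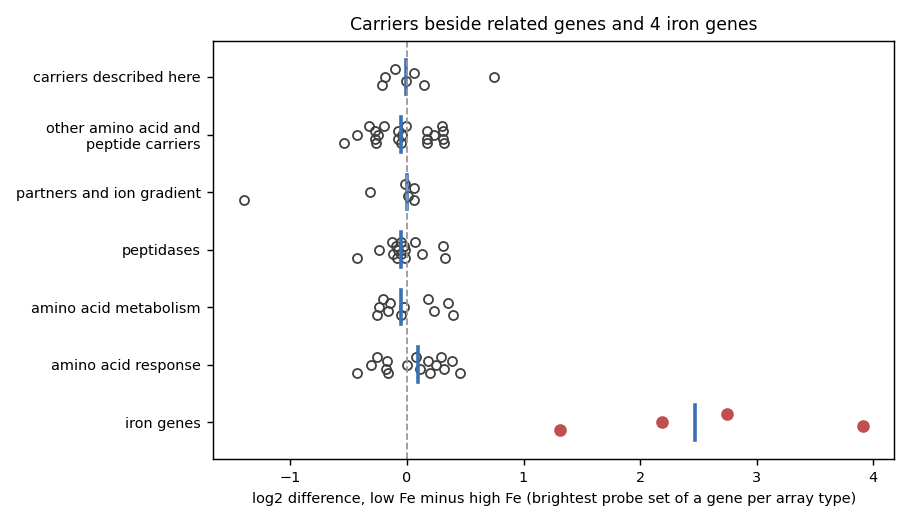
log2 difference (low Fe minus high Fe) of each tested gene in the carrier group, 5 related lists and the 4 iron genes, by the brightest probe set on its array type. Filled red circles passed adjusted p 0.05, open circles did not, and blue bars are medians. The iron genes lie from 1.31 to 3.91, and the carriers from -0.21 to 0.75.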

How the data were processed

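The deposited tables hold 1 intensity per probe set and array, linear and never negative. The software behind them was not stated in the sources used here. The values show that the authors' signals share 1 mean per array type once 2% at each end is left out, which hides any change common to most genes. Gene names come from the platform annotation. On 230A, 12783 of 15866 probe sets had 1 symbol, 312 several and 2771 none, and on 230B 7564 of 15276 had 1, 100 several and 7612 none. Of these 12748 and 7524 matched RefSeq genes of GRCr8 by Entrez identifier and took its symbols for the lists.

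Values were transformed as log2(signal + 16). A filter on the mean log2 value removed the dimmest 40% of probe sets and kept 9519 on 230A and 9165 on 230B. The test was limma's (version 3.58.1 in R 4.3.3): lmFit, then eBayes with trend, on the 2 groups of 1 array type at a time. Benjamini-Hochberg adjustment ran over all tested probe sets of a type, with a threshold of 0.05. The brightest probe set stands for a gene in the lists. Means and SDs are of linear signals. Beside the carriers, the text names up to 3 genes per list and type with the smallest p. It also names the 3 genes nearest by pattern to the 2 carriers with the largest differences. A few (Slc43a2, Atf4, Pcna, Mki67, Cdx2, Cdh1, Onecut2, Cd8a, the muscle markers, the iron genes) were chosen after their values were seen.

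Arrays with the same number showed no sign of pairing: their deviations from group means had correlations between -0.356 and -0.149 (230A) or between -0.265 and -0.0993 (230B). Alternatives were other pseudocounts, filters, scalings and variance models, blocks for replicate number and RNA quality, and each array left out. The script was tested on simulated data. The carriers, lists and alternatives were chosen with earlier results of these data known.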

Additional observations from a re-analysis of the deposited data

How the results depend on the processing

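No carrier probe set passed under any alternative (135 combinations, lowest adjusted p = 0.280, highest 0.999), and 125 kept the direction. Other filters, other variance models and the replicate block leave the log2 difference itself unchanged. Under these the direction was kept by construction, so the count of 125 overstates how far direction was tried. Of the 10 that did not keep it, 4 come from a scaling that moved every probe set up. The brighter Slc1a1 probe set ran from 0.59 to 0.98 with 1 array left out (adjusted p from 0.280 without low Fe replicate 1 to 0.999 without low Fe replicate 2), and its lowest value was the mean of both probe sets, 0.46. These 4 were Slc15a1 (0.27), Slc3a1 (0.16), Slc3a2 (0.36) and Slc7a8 (0.18) with hybridization controls, under which the median of all probe sets was 0.34. The remaining 6 were Slc3a2 with a common median (0.0580) and with the GAPDH ratio sets as block (0.0010), and, with 1 array left out, Slc3a2 (-0.0607 to 0.0463, above 0 without high Fe or low Fe replicate 2), Slc15a1 (-0.22 to 0.0119, above 0 without low Fe replicate 3) and Slc7a8 (-0.36 to 0.0422, above 0 without low Fe replicate 2). The common median scaling moved the median of all tested 230A probe sets from -0.01 to 0.0505, and Slc3a2 lay just above that median. The cause of the other reversals among these 6 was not tested. Slc7a7, Slc7a9 and both Slc1a1 probe sets reversed under none. With the lowest 60% left out, the Slc1a1 probe sets were not tested. Over all 230A probe sets, 9 passed (8 higher, 1 lower in low Fe), 33 (25 higher, 8 lower) with hybridization controls, 14 with the GAPDH ratio sets as block, 4 with the replicate block, which changed no call of a carrier, and 5 to 21 with 1 array left out (5 without low Fe replicate 2, 21 without low Fe replicate 1). On 230B, 0 passed (limma, 932 at an unadjusted p under 0.05), 4 with hybridization controls, and 0 with any 1 array left out. The cause of these changes was not tested. Signal over background limits Slc1a1, whose probe sets lay near the filter boundary.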
